A study of Jaculus jaculus with 29 samples.

Results

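The 10 genes described here are the core of the circadian clock, Arntl (also written Bmal1), Clock, Per1, Per2, Per3, Cry1, Cry2, Nr1d1, Nr1d2 and Dbp, measured by RNA sequencing in the supraoptic nucleus of the lesser Egyptian jerboa, Jaculus jaculus. The genes were chosen by name. The authors' table names 8 of them, and Per1 and Per3, whose entries in that table carry no symbol, were named by position from RefSeq, so that all 10 were found among 29170 genes of the count table. The supraoptic nucleus is a hypothalamic nucleus whose large (magnocellular) neurons make vasopressin and oxytocin. Control animals (10 libraries) had free access to water, Dehydrated animals (10 libraries) went without water for 11 days, and Rehydrated animals (9 libraries) went without it for 7 days and then drank freely for 3 days. Every animal was housed alone with dry food at 25 °C on a 12-hour light cycle. No source used here gives the hour at which brains were collected.

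In the clock, the proteins of Arntl and Clock form a dimer that switches on the Per and Cry genes, and the PER and CRY proteins return to block that dimer. Nr1d1 and Nr1d2 encode the receptors REV-ERB alpha and beta, which are switched on by the same dimer and repress Arntl in a further loop. Dbp encodes a transcription factor of the PAR bZIP family that is driven directly by the dimer and carries the rhythm to other genes. In most tissues Arntl peaks at the opposite time of day to Dbp, Nr1d1 and the Per genes. Per1 also responds at once to signals from outside the clock, among them neuronal activity and glucocorticoids. The master clock lies in the suprachiasmatic nucleus, near the supraoptic nucleus, and many other brain regions express the same genes.

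Total counts per library ran from 10797577 to 18856620. The library Control M01 had the lowest total and stood far from the rest on the leading principal component, which held 21.7% of the variance, at -137 against -7.76 to 13.7 for the other 28. The letter in a library's name, F or M, differs from its sex label in 3 libraries: Control F03 is labelled male, and Control M05 and Dehydrated M02 are labelled female, and the submitters' titles ask that the name be disregarded for these 3. In the count table, column names of F-named libraries carry running numbers from 16 to 29 and those of M-named libraries 1 to 11, 13 to 15 and, for Rehydrated M04, 50. No source used here says what these numbers stand for. Results below are therefore given by sex label and by name letter, and with and without Control M01 where it matters. Markers of the supraoptic nucleus were present in every group, with the vasopressin gene Avp at a median of 836 CPM (counts scaled to a common library total) in Control, 3190 CPM in Dehydrated and 2300 CPM in Rehydrated. Nothing in the labels says that libraries are separate animals beyond their names, so p-values measure the spread between these libraries.

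In the mJacJac1 assembly Arntl (ENSJJAG00000018760) lies on chromosome 3 from 180254707 to 180293938, plus strand. Clock (ENSJJAG00000022276) lies on chromosome 11 from 13616746 to 13674961, plus strand. Per1 (ENSJJAG00000016621) lies on chromosome 12 from 5090508 to 5101571, plus strand, and Per2 (ENSJJAG00000001468) on chromosome 4 from 24125614 to 24165958, minus strand. Per3 (ENSJJAG00000015643) lies on chromosome 5 from 42519176 to 42566847, plus strand. Cry1 (ENSJJAG00000005742) lies on chromosome 6 from 149451172 to 149514609 and Cry2 (ENSJJAG00000023774) on chromosome 1 from 180249350 to 180274110, both on the minus strand. Nr1d1 (ENSJJAG00000023393) lies on chromosome 9 from 112044735 to 112052112, minus strand, and Nr1d2 (ENSJJAG00000013005) on chromosome 16 from 61468747 to 61496150, plus strand. Dbp (ENSJJAG00000013345) lies on chromosome 14 from 21967483 to 21972332, plus strand. Counting gave no strand option, so 474 of the 2327 exon bases of Nr1d1, which overlap exons of Thra on the other strand, cannot be told apart from Thra. The same holds for Dbp, where 166 of 1645 exon bases overlap Sphk2 on the other strand. Another 89 overlap Car11, which is on the same strand as Dbp, so that a strand option would not separate them. Exons of the other 8 genes overlap no annotated neighbour.

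All 10 genes were well measured, with median counts per library from 376 for Cry1 to 1181 for Per3. Per kilobase of exon, Dbp had the highest level, at 30 ± 5.46 CPM per kilobase (SD, n = 29). The REV-ERB genes followed, Nr1d2 at 25.3 ± 4.34 and Nr1d1 at 24.7 ± 4.47 CPM per kilobase. Cry2 (18.9 ± 3.16), Clock (17.7 ± 3.50) and Per3 (16.5 ± 3.40 CPM per kilobase) formed a middle range. Per1 (9.29 ± 2.93), Cry1 (9.02 ± 1.35), Arntl (8.77 ± 1.26) and Per2 (6.76 ± 1.30 CPM per kilobase) were lowest. Neighbours within each of these ranges differed by less than their SD, except that Per2 lay below Arntl by more than either SD. Levels between genes also depend on the annotated exon length.

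Neither water restriction nor its reversal moved any of the 10 clock genes past the test threshold. In Dehydrated against Control 0 of 10 passed (edgeR quasi-likelihood test, adjusted p under 0.05), where 0.125% of the 17558 genes tested did. Of the 10, 0 had an unadjusted p under 0.05 (6.37% of all genes), and 0 passed with DESeq2 (0.222% of all genes). In Rehydrated against Control 0 of 10 passed (0.0% of all genes), 1 had an unadjusted p under 0.05 (7.48%), and 0 passed with DESeq2 (0.103%). In Rehydrated against Dehydrated 0 of 10 passed (0.0228%), 1 had an unadjusted p under 0.05 (3.88%), and 0 passed with DESeq2 (0.074%). The median log2 difference of the 10 was 0.04, 0.03 and 0.04 in the 3 comparisons, beside -0.00298, 0.00304 and 0.00407 over all genes tested. In bulk tissue fewer cells of a type and less RNA per cell cannot be told apart. The comparisons share libraries, so their values are set side by side and not counted as independent.

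**Figure D1:**
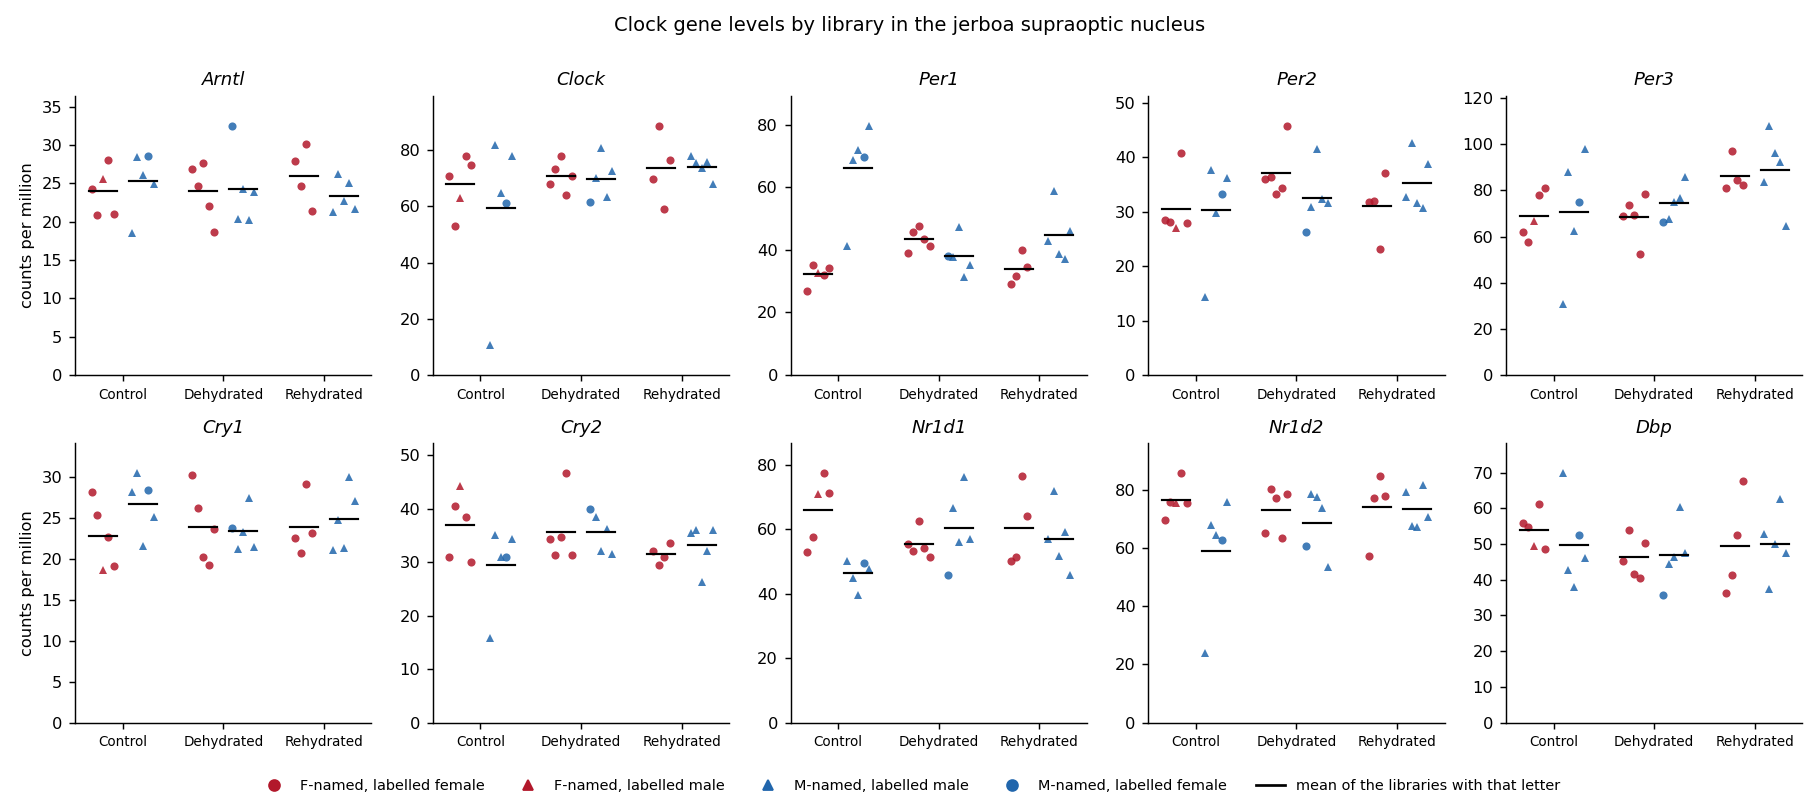
CPM of each of the 10 clock genes in all 29 libraries, by treatment group (x axis), with F-named libraries in red and M-named in blue, circles for animals labelled female and triangles for those labelled male; black bars are means of the libraries with that letter. The groups overlap for every gene, Per1 splits by letter in Control, and Control M01 is the low point for Clock (10.8 CPM), Nr1d2, Per2, Per3 and Cry2.

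Arntl is the activator whose loss alone stops the clock. In Control it ran from 18.5 to 28.6 CPM with a median of 25.2, in Dehydrated from 18.7 to 32.5 with a median of 24, and in Rehydrated from 21.3 to 30.1 with a median of 24.6. The 3 groups overlapped along almost their whole range. The log2 difference of Dehydrated from Control was -0.05 (SE 0.10, 95% interval -0.24 to 0.15, adjusted p = 0.908), and the interval of Rehydrated from Control was -0.20 to 0.20.

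Clock, the partner of Arntl, ran from 10.8 to 82.0 CPM in Control with a median of 67.8, from 61.6 to 80.8 in Dehydrated with a median of 70.4, and from 59.1 to 88.7 in Rehydrated with a median of 75.6. Only Control M01, at 10.8 CPM, lay outside the range of the other libraries, and the lowest of the other Control libraries had 53.1 CPM. Dehydrated differed from Control by 0.14 in log2 (SE 0.18, 95% interval -0.22 to 0.50) and Rehydrated from Control by 0.22 (SE 0.18, -0.15 to 0.59). Without Control M01 these became 0.02 (SE 0.07) and 0.08 (SE 0.08), and neither passed (adjusted p = 0.998 and 0.817).

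Among the repressors, Per3 had higher mean values in Rehydrated libraries. It ran from 30.6 to 97.9 CPM in Control with a median of 70.8, from 52.5 to 85.9 in Dehydrated with a median of 71.6, and from 64.7 to 108.0 in Rehydrated with a median of 84.5. The groups overlapped, though 8 of the 9 Rehydrated libraries had 81.2 CPM or more. Rehydrated exceeded Control by 0.32 in log2 (SE 0.13, 95% interval 0.06 to 0.59, p = 0.0196) and Dehydrated by 0.29 (SE 0.13, 0.02 to 0.55, p = 0.0371). After adjustment over all genes neither passed (adjusted p = 0.592 and 1.0). The difference of Rehydrated from Control was 0.31 (SE 0.13) among F-named and 0.32 (SE 0.24) among M-named libraries, the latter with Control M01. Without that library Per3 had a mean of 80.7 CPM in M-named Control and 88.9 CPM in M-named Rehydrated libraries. The F-named means were 69.0 and 86.2 CPM. Over both letters the difference was 0.23 (SE 0.09) without Control M01, where that of Per1 was -0.35 (SE 0.18). Dehydrated and Control differed by 0.04 (SE 0.13), and by -0.05 (SE 0.09) without Control M01.

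Per1, the member that responds fastest to outside signals, ran from 26.8 to 79.7 CPM in Control with a median of 38.1, from 31.4 to 47.5 in Dehydrated with a median of 40.1, and from 29.1 to 58.9 in Rehydrated with a median of 38.7. Control held both the lowest and the highest libraries of the series. Dehydrated differed from Control by -0.22 in log2 (SE 0.17, 95% interval -0.56 to 0.12, adjusted p = 0.807) and Rehydrated from Control by -0.31 (SE 0.17, -0.66 to 0.03, adjusted p = 0.692). The pooled value for Dehydrated lay between opposite directions in the 2 letters. Among F-named libraries alone Per1 was 0.44 higher in Dehydrated than in Control (SE 0.11, p = 0.000992, adjusted p = 0.606), and among M-named libraries alone it was lower, at -0.81 (SE 0.18, p = 0.000344, adjusted p = 0.199). For Rehydrated against Control the values were 0.08 (SE 0.12) and -0.56 (SE 0.18, p = 0.0073, adjusted p = 0.679).

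Per2, which like Per1 is both a clock repressor and responsive to outside signals, ran from 14.3 to 40.8 CPM in Control with a median of 29.1, from 26.3 to 45.8 in Dehydrated with a median of 33.9, and from 23.1 to 42.7 in Rehydrated with a median of 31.9. Dehydrated differed from Control by 0.20 (SE 0.13, 95% interval -0.07 to 0.46, adjusted p = 0.802), and by 0.12 (SE 0.10) without Control M01, its lowest library. The cryptochromes differed less. Cry1 had medians of 25.2, 23.5 and 23.2 CPM in Control, Dehydrated and Rehydrated, and a log2 difference of -0.06 (SE 0.10, -0.27 to 0.14) in Dehydrated against Control. Cry2 had medians of 32.7, 34.5 and 32.1 CPM and a log2 difference of 0.10 (SE 0.11, -0.13 to 0.33), which was 0.03 (SE 0.08) without Control M01.

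The REV-ERB genes and Dbp, the most abundant members per kilobase, also stayed within the spread between libraries. Nr1d1 ran from 39.5 to 77.4 CPM in Control with a median of 51.6, and had medians of 55.7 in Dehydrated and 57.0 in Rehydrated. Its log2 difference in Dehydrated against Control was 0.04 (SE 0.11, 95% interval -0.19 to 0.28), with -0.23 (SE 0.13) among F-named and 0.37 (SE 0.14, p = 0.0191, adjusted p = 0.448) among M-named libraries. As with Per1, the pooled value sat between opposite directions in the 2 letters, here with the signs exchanged.

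Nr1d2 had medians of 72.6, 75.5 and 77.3 CPM in Control, Dehydrated and Rehydrated, and a log2 difference of 0.06 (SE 0.13, -0.21 to 0.32) in Dehydrated against Control, which was -0.03 (SE 0.08) without Control M01. Dbp ran from 37.9 to 69.8 CPM in Control with a median of 51.0, from 35.8 to 60.3 in Dehydrated with a median of 45.7, and from 36.3 to 67.6 in Rehydrated with a median of 49.9. Its log2 difference was -0.15 in Dehydrated against Control (SE 0.11, -0.39 to 0.08, adjusted p = 0.807) and -0.06 (SE 0.12, -0.30 to 0.18) in Rehydrated against Control. The widest 95% intervals among the 10 were those of Clock and Per1, which reached 0.59 and -0.66 in log2 in Rehydrated against Control. The SE of Clock in that comparison was 0.18, and 0.08 without Control M01.

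**Figure D2:**
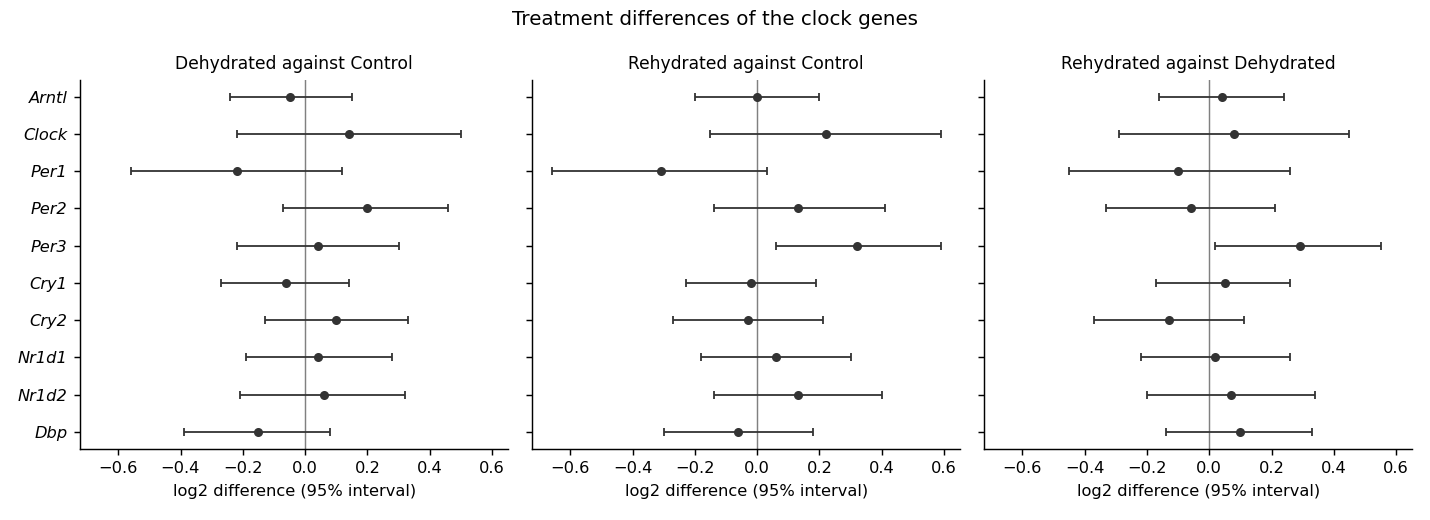
Log2 difference (x axis) of each clock gene in the 3 treatment comparisons, with its 95% interval from the edgeR model of group and sex over 29 libraries. The intervals cross 0 except those of Per3 in both comparisons with Rehydrated, 0.06 to 0.59 against Control and 0.02 to 0.55 against Dehydrated, before adjustment over all genes.

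None of the 10 genes (0) in the authors' deposited tables had an adjusted p under 0.05 in either comparison with Control. The authors' log2 fold changes ran from -0.25 to 0.12 in Dehydrated against Control and from -0.35 to 0.23 in Rehydrated against Control. DESeq2 without Control M01 gave these same ranges, while DESeq2 with that library gave -0.22 to 0.2 and -0.31 to 0.33. The authors' values are thus not a check on the fits that include Control M01. Which libraries entered the authors' fits was not tested. In the authors' deposited table for Rehydrated against Control, Per3 had the lowest adjusted p of the 10, 0.439, at a log2 fold change of 0.23. By sex label 0 of the 10 genes passed (0.0342% of all genes), 0 had an unadjusted p under 0.05 (3.87%) and 0 passed with DESeq2 (0.057%), and the 10 differences of male from female lay between -0.11 and 0.28.

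A list of 24 other clock genes held 23 that were tested and Arntl2, which had no named entry. In Dehydrated against Control 0 of 23 passed (0.125% of all genes), 0 had an unadjusted p under 0.05 (6.37%), and 18 lay above 0 (median 0.09), as did 49.2% of all genes. In Rehydrated against Control 0 of 23 passed (0.0%), 3 had an unadjusted p under 0.05 (7.48%), and 18 lay above 0 (median 0.09), as did 50.8% of all genes. Control M01 had the lowest mean log2 CPM of the list, 4.08, where the other 28 libraries had at least 4.54. Without it, 15 of 23 lay above 0 in Dehydrated against Control (median 0.04) and 12 of 23 in Rehydrated against Control (median 0.01), and 0 passed in either. The 3 genes with an unadjusted p under 0.05 were Rorb, a nuclear receptor that activates Arntl's promoter elements (0.39, SE 0.14, p = 0.00985, adjusted p = 0.571), Hlf, a PAR bZIP factor like Dbp (0.25, SE 0.11, p = 0.0369, adjusted p = 0.639), and Usp2, a deubiquitinase with a circadian transcript (0.30, SE 0.14, p = 0.0459, adjusted p = 0.657). Without Control M01 these were 0.35 (p = 0.0201) for Rorb, 0.17 (p = 0.0666) for Hlf and 0.22 (p = 0.0928) for Usp2. In Rehydrated against Dehydrated 0 of 23 passed and 0 had an unadjusted p under 0.05, with a median of 0.01.

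By role, the kinases and ubiquitin ligases that set the life span of PER and CRY proteins lay above 0 in 7 of 7 genes both in Dehydrated against Control (0.07 to 0.18) and in Rehydrated against Control (0.01 to 0.43), and 0 of 7 passed in either. Without Control M01, whose summed level of these 7 was 253 CPM beside at least 525 CPM in every other library, 6 of 7 (median 0.05) and 4 of 7 (median 0.01) lay above 0. Their smallest p in Dehydrated against Control was that of Csnk1e (0.11, SE 0.07, p = 0.14), a casein kinase that marks PER for decay. Of the 4 further repressors Bhlhe41 had 0.21 (SE 0.14, p = 0.166) and Cipc 0.07 (SE 0.06, p = 0.207). Of the 3 receptors of the ROR family, which compete with REV-ERB, Rorb had 0.22 (SE 0.14, p = 0.122). Of the 3 further bZIP factors Tef had 0.14 (SE 0.10, p = 0.18) and Hlf 0.05 (SE 0.11, p = 0.657), and of the 5 outputs Nampt had -0.12 (SE 0.07, p = 0.116) and Wee1 -0.33 (SE 0.33, p = 0.316). Npas2, which can stand in for Clock, had 0.09 (SE 0.12, p = 0.465).

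The clearest difference among the clock genes was that of Per1 between M-named and F-named Control libraries. The 5 F-named Control libraries had 26.8, 35.1, 32.7, 32 and 34.3 CPM (F01, F02, F03, F05 and F06). The 5 M-named Control libraries had 41.1, 68.6, 72.1, 69.8 and 79.7 CPM (M01, M03, M04, M05 and M06). The letters did not overlap, and the lowest M-named library was Control M01. The libraries whose sex label goes against their letter sat with their letter: Control F03, labelled male, had 32.7 CPM, and Control M05, labelled female, had 69.8 CPM.

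Per1 was higher by 1.04 in log2 in M-named than in F-named Control libraries (SE 0.14, adjusted p = 0.000152, edgeR), and by 1.17 (SE 0.12, adjusted p = 9.79e-07) without Control M01. A fit on the 10 Control libraries alone gave 1.05 and an adjusted p of 0.0535, so the call was lost when the other groups did not enter the fit. The contrast within Control from the fit over all 29 libraries was added after the data had been seen. It called 1 of the 10 clock genes, where 0.604% of all genes passed, and 4 of 10 had an unadjusted p under 0.05, where 16.7% of all genes did. Without Control M01 2 of 10 had an unadjusted p under 0.05, where 12.4% of all genes did. With DESeq2 2 of 10 passed (2.51% of all genes), Per1 and Nr1d1. In Dehydrated the letters overlapped, with F-named libraries from 39.1 to 47.5 CPM and M-named from 31.4 to 47.2 CPM (log2 difference -0.20, SE 0.14, adjusted p = 1). In Rehydrated F-named libraries ran from 29.1 to 39.9 CPM and M-named from 37 to 58.9 CPM (0.40, SE 0.15, p = 0.013, adjusted p = 1).

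In Dehydrated, 0 of 10 clock genes passed between the letters with edgeR (0.0% of all genes) or DESeq2 (0.0057%), 0 had an unadjusted p under 0.05 (2.05%), and 0 had letters that did not overlap (0.689%). In Rehydrated, 0 of 10 passed with edgeR (0.0%) or DESeq2 (0.0285%), 1 had an unadjusted p under 0.05 (3.74%), and 0 had letters that did not overlap (1.34%).

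The test of the difference itself passed for Per1 in Dehydrated against Control: the M minus F difference was lower by 1.24 in log2 in Dehydrated (value -1.24, SE 0.20, adjusted p = 0.0041). It called 1 of 10 clock genes, where 0.0513% of all genes passed, and 2 of 10, Per1 and Nr1d1, had an unadjusted p under 0.05 (9.23%). DESeq2 also called 1 of 10, Per1 (0.313% of all genes). The call held in all 29 fits that left out a library (-1.37 to -1.16). With sex labels in place of letters, which moves 3 libraries, the value was -0.75 (SE 0.31, adjusted p = 0.817) and did not pass. For Rehydrated against Control it was -0.64 (SE 0.21, p = 0.00445, adjusted p = 0.279), where 0 of 10 clock genes and 0.0% of all genes passed, 2 of 10 had an unadjusted p under 0.05 (11.1%) and 0 of 10 passed with DESeq2 (0.444%). For Rehydrated against Dehydrated it was 0.60 (SE 0.21, p = 0.00748, adjusted p = 1), with 0 of 10 passing by either tool (0.0% of all genes) and 1 under an unadjusted p of 0.05 (3.22%). Over all 29 libraries Per1 differed by letter by 0.42 (SE 0.13, p = 0.00253, adjusted p = 0.740), and 0 of the 10 genes passed (0.0114% of all genes), 1 had an unadjusted p under 0.05 (4.98%) and 0 passed with DESeq2 (0.0683%). With sex and letter in 1 model, the letter had 0.54 (SE 0.21) and the sex label -0.16 (SE 0.22), neither past the threshold.

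Nr1d1 differed in Control in the opposite direction. Its 5 F-named Control libraries had 53.1, 57.7, 71.1, 77.4 and 71.3 CPM, and its 5 M-named Control libraries had 50.1, 44.9, 39.5, 49.4 and 47.8 CPM. Again the letters did not overlap, which held for 2 of the 10 clock genes and for 2.49% of all genes. The difference was -0.51 (SE 0.14, p = 0.000749) and missed the threshold with edgeR (adjusted p = 0.0697), while DESeq2 called it (-0.51, adjusted p = 0.0231), as did edgeR without Control F01 (-0.58, adjusted p = 0.0394). In Dehydrated and Rehydrated the letters overlapped, at 0.12 (SE 0.14) and -0.08 (SE 0.14).

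Since both genes split the Control letters, in opposite directions, their ratio restates that split on 1 scale. The ratio of Nr1d1 to Per1 CPM was 1.64 to 2.42 in F-named and 0.548 to 1.22 in M-named Control libraries. In Dehydrated it was 1.17 to 1.42 among F-named and 1.18 to 2.42 among M-named libraries, and in Rehydrated 1.62 to 1.91 and 0.989 to 1.6. The ratio was thus lowest in M-named Control libraries, while the highest M-named Dehydrated library reached the level of the highest F-named Control library.

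The 8 other members had no call between the Control letters with either tool. Nr1d2 (-0.37, SE 0.18, p = 0.047, adjusted p = 0.292) and Cry2 (-0.32, SE 0.16, p = 0.0491, adjusted p = 0.296) had unadjusted p under 0.05, and were -0.17 and -0.16 without Control M01. Of the other Per genes, Per2 had -0.00 (95% interval -0.38 to 0.37) and Per3 0.04 (-0.34 to 0.42), both below the interval of Per1 (0.75 to 1.34). Dbp had -0.12 (SE 0.16) and Arntl 0.08 (SE 0.14).

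**Figure D3:**
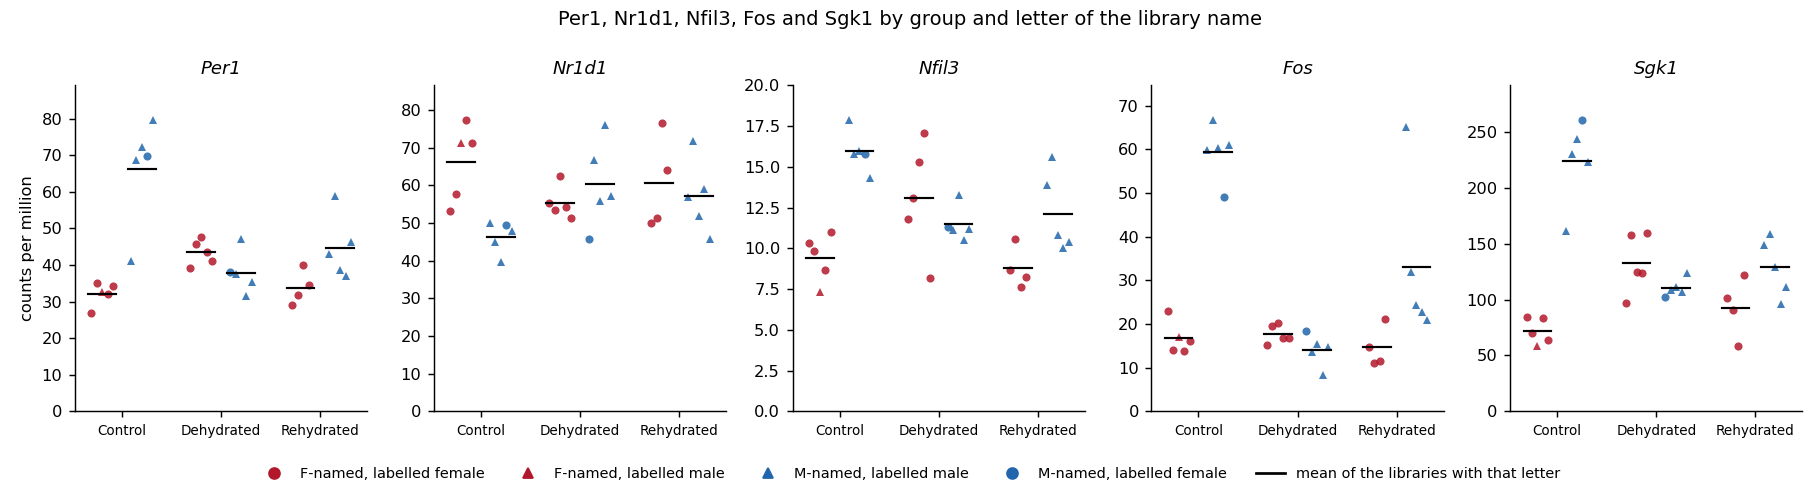
CPM (y axis) of Per1, Nr1d1, Nfil3, Fos and Sgk1 by treatment group and letter of the library name, with the same colours and symbols as in the plot of all members. In Control the M-named libraries lie above the F-named for Per1, Nfil3, Fos and Sgk1 and below them for Nr1d1; Control M05 and Control F03 lie with their letter, not with their sex label.

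Of the 23 other clock genes 1 passed between the Control letters, where 0.604% of all genes did: Nfil3, a bZIP repressor that binds the same sites as Dbp. It had 7.30 to 11.0 CPM in F-named and 14.3 to 17.9 CPM in M-named Control libraries, with no overlap (0.76, SE 0.16, adjusted p = 0.0222). The call held in 24 of 29 fits with a library left out and was lost without Control F02, F03, F05, M01 or M04 (adjusted p up to 0.0741). Bhlhe41, a repressor of the clock dimer, had -0.55 (SE 0.18, p = 0.00456, adjusted p = 0.131), and Usp2 had -0.43 (SE 0.18, p = 0.0224, adjusted p = 0.225). Without Control M01 0 of the 5 outputs, Usp2 among them, had an unadjusted p under 0.05, and their lowest value was -0.3. In that fit 1 of the 4 further repressors, Bhlhe41 among them, had an unadjusted p under 0.05, and their lowest value was -0.44. The 7 kinases and ligases all lay below 0 (-0.48 to -0.12, median -0.25) and 0 passed, and without Control M01 6 of 7 lay below 0 with a median of -0.04. With all libraries the smallest p was that of Csnk1e (-0.20, SE 0.09, p = 0.0305, adjusted p = 0.248).

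**Figure D4:**
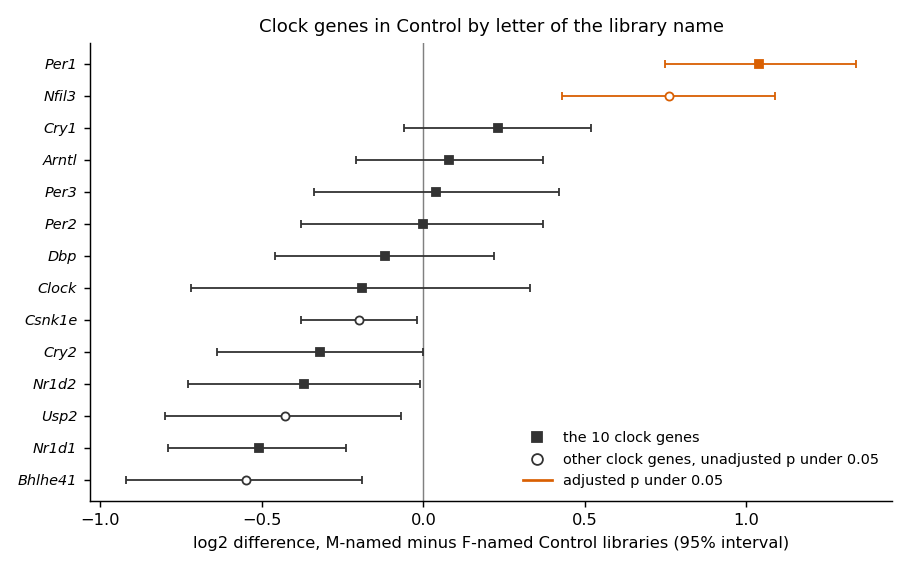
Log2 difference of M-named from F-named Control libraries (x axis) with 95% intervals for the 10 clock genes (squares) and the 4 of 23 other clock genes with an unadjusted p under 0.05 (open circles), ordered by size. Of all genes 16.7% had an unadjusted p under 0.05 (edgeR). Without Control M01 it was 2 of the 23 other clock genes and 12.4% of all genes. Per1 (1.04) and Nfil3 (0.76) passed the threshold and are drawn in orange; Nr1d1 (-0.51) and Bhlhe41 (-0.55) are at the other end.

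Several lists of genes that respond to activity, hormones or temperature differed between the same Control libraries. Their part in the difference of Per1 was not tested. Earlier work on these data had found activity genes to follow the letter, and the letter comparison was chosen with that known. The values of the activity genes below therefore restate an earlier result of the same libraries. Over all genes 48.1% lay above 0 in this contrast and 0.604% passed. Of 18 immediate-early genes, the transcripts that neuronal firing induces within minutes, 18 lay above 0 in M-named Control libraries and 5 passed. Among these were Fos (1.83, SE 0.25, adjusted p = 0.000152), Junb (1.24, SE 0.22, adjusted p = 0.00504), Fosb (2.11, SE 0.39, adjusted p = 0.0076) and Egr1 (1.68, SE 0.34, adjusted p = 0.0189). Fos had 22.9, 14, 17.1, 13.8 and 16 CPM in the F-named and 59.8, 66.8, 60.4, 49.1 and 61.1 CPM in the M-named Control libraries. The summed level of the list was 196 to 243 CPM in F-named and 346 to 539 CPM in M-named Control libraries, and 188 to 257 and 159 to 233 CPM in Dehydrated.

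Of 11 glucocorticoid-responsive genes 4 passed and were higher in M-named Control libraries: Sgk1, a kinase (1.63, SE 0.17, adjusted p = 4.04e-06), Nfkbia, an inhibitor of NF-kappa-B (1.23, SE 0.16, adjusted p = 9.45e-05), Gjb6, a gap junction protein (0.62, SE 0.10, adjusted p = 0.00237), and Ddit4, an inhibitor of mTOR signalling (0.56, SE 0.12, adjusted p = 0.0214). The other 7 did not pass, and 5 of the 11 lay below 0. Summed levels were 368 to 432 CPM in F-named and 592 to 740 CPM in M-named Control libraries. Of 9 temperature-responsive genes 4 passed and were higher, all chaperones or their helpers: Dnajb1 (1.64, SE 0.19, adjusted p = 2.85e-05), Dnaja1 (0.63, SE 0.11, adjusted p = 0.00222), Hsph1 (0.59, SE 0.12, adjusted p = 0.0204) and Hsp90aa1 (0.40, SE 0.09, adjusted p = 0.0322). Summed levels were 4670 to 5260 CPM and 5640 to 7430 CPM. The summed levels of the 3 lists did not overlap between the Control letters. The sum weighs abundant genes most: by mean log2 CPM the glucocorticoid list overlapped, at 4.29 to 4.55 in F-named and 4.19 to 4.87 in M-named Control libraries, and its median difference was 0.04. Without Control M01, 15 of the 18 immediate-early genes lay above 0 and 4 passed, Egr1 no longer, and 4 glucocorticoid-responsive and 4 temperature-responsive genes passed, with Chordc1 in place of Hsp90aa1. In that fit 2 of the 9 temperature-responsive genes lay below 0, with values down to -0.63.

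The same lists supplied 4 of the 9 genes whose letter difference changed between Control and Dehydrated: Fos (-2.17, SE 0.35, adjusted p = 0.0041), Sgk1 (-1.90, SE 0.24, adjusted p = 0.000173), Nfkbia (-1.20, SE 0.22, adjusted p = 0.0237) and Dnajb1 (-1.73, SE 0.27, adjusted p = 0.0041), beside Per1. Among Rehydrated libraries M04, whose column number stands outside the series, had the highest Per1 (58.9 CPM), Sgk1 (159 CPM), Nfkbia (37.8 CPM) and Nfil3 (15.6 CPM), while Fos (65.2 CPM) and Dnajb1 (124 CPM) were highest in M01, with 31.8 and 108 CPM in M04.

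Markers of other tissue were also compared. Of 10 markers of the suprachiasmatic nucleus 8 were tested, among them Rorb, which is also a clock gene here. Prok2, a defining one, was too low to test, with no count in 11 libraries and at most 20. All 8 lay below 0 in M-named Control libraries (median -0.66), 0 passed and 3 had an unadjusted p under 0.05 (16.7% of all genes). Summed levels were 53.2 to 167 CPM in F-named and 40.5 to 84.7 CPM in M-named Control libraries. Without Control M01, which had the lowest sum, all 8 still lay below 0 (median -0.58), 2 had an unadjusted p under 0.05 (12.4% of all genes) and 0 passed. The lowest M-named sum was then 47.5 CPM. Of 7 astrocyte markers 6 lay below 0 (7 without Control M01) and 0 passed, with summed levels of 2770 to 4050 and 1950 to 3020 CPM. Without Control M01 6 of 6 endothelial markers lay below 0, down to -0.9, and 1 passed. In the same fit 6 of 6 oligodendrocyte markers lay above 0 (median 0.23) and 5 of 6 microglia markers below 0, and 0 passed in either. Ependymal and choroid plexus markers went both ways there, and 0 passed. Of 12 magnocellular markers 7 lay above 0 (5 without Control M01) and 0 passed (2700 to 4850 and 2260 to 5260 CPM). In Dehydrated against Control 4 of these 12 rose, including Avp, which did not pass without Control M01 (1.84, SE 0.40, adjusted p = 0.0879), while the other 3 did; their part in the clock gene values was not tested.

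Spread within treatment groups was compared as the standard deviation of log2 CPM. Over all 29 libraries Clock had the largest, 0.522, followed by Per1 at 0.406. Without Control M01 Clock had 0.166 and Per1 had the largest, 0.413, which includes its split between the Control letters. This was larger than in 98.2% of the 8067 genes whose mean level was at least that of the lowest member; their median was 0.152. Nr1d1 (0.266, 92.7%), Dbp (0.247, 90.2%) and Per2 (0.231, 87.4%) followed. Cry1 had 0.220, Per3 0.219, Arntl 0.201, Cry2 0.180, Nr1d2 0.175, and 60.5% of genes varied less than Clock. Without Control M01 all 10 members were thus above the median gene of that set in spread. The set has no upper limit of level, so it is not matched to the members.

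Control M01 departed from the other Control libraries in a pattern of its own. It was lower by -2.67 in log2 for Clock, -1.59 for Nr1d2, -1.26 for Per3, -1.15 for Per2 and -1.13 for Cry2, and by -0.44 for Arntl. Per1 (-0.16) and Nr1d1 (-0.15) departed less from that mean, which joins the 2 letters. Against the other 4 M-named Control libraries alone Per1 was at -0.82 and Nr1d1 at 0.15. Against all other Control libraries Cry1 (0.23) and Dbp (0.50) were higher. Over all genes tested the 5th and 95th percentiles of this departure were -2.14 and 1.15, so that of the members only Clock lay outside them. In this library the median departure was 0.31 for the genes with the shortest exons and -0.47 for those with the longest, of 4 sets of equal size, and the part of transcript length in the member values was not tested.

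Whether libraries differed in clock phase was examined through pairs of members, since genes of opposite phase should run against each other across libraries. The ratio of Dbp to Arntl CPM, a simple gauge of phase, was 1.45 to 3.77 in Control with a median of 2.06, 1.10 to 2.99 in Dehydrated with a median of 1.95, and 1.30 to 3.16 in Rehydrated with a median of 2.20. The 3 groups overlapped, and the highest value was that of Control M01. Across 29 libraries Arntl and Dbp had r = -0.46 and rho = -0.40 (permutation p = 0.013 and 0.0319, adjusted over 45 pairs 0.0755 and 0.205), and r = -0.27 without the 2 libraries farthest from the median of Arntl. Within letters r was -0.22 among F-named and -0.64 among M-named libraries (adjusted p = 0.991 and 0.0891). The pooled and M-named values include Control M01, which had the lowest Arntl (18.5 CPM) and the highest Dbp (69.8 CPM) of all libraries. The pooled r without that library is in the plot of all pairs. Arntl and Nr1d1, another pair of opposite phase with a direct link, had r = -0.09 (permutation p = 0.66, adjusted p = 0.779), with 0.31 among F-named and -0.41 among M-named libraries. The r of Arntl with Nr1d2 and with the Per genes is in the plot of all pairs, and none of these pairs passed.

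Of the 45 pairs 2 passed, Clock with Per3 and Clock with Per2. As deviations from group means 8 pairs passed, 7 positive and 1 negative, and 2 to 6 passed with 1 library left out. Clock and Per3 had r = 0.81 and rho = 0.63 (permutation p = 2e-05 and 0.00033, adjusted p = 0.0009 and 0.0148) and r = 0.54 without the 2 farthest libraries. Without Control M01 the pair still passed (r = 0.60, permutation p = 0.0006, adjusted p = 0.027, rho = 0.59). Among F-named libraries it had r = 0.60 (adjusted p = 0.281), which fell to 0.24 without the 2 farthest. Clock and Per2 had r = 0.78 and rho = 0.55 (permutation p = 0.00013 and 0.00217, adjusted p = 0.00292 and 0.0488), and r = 0.50 (adjusted p = 0.0775) without Control M01, so that its call rested on that library. The highest r of all, 0.86 for Clock with Nr1d2 (adjusted p = 0.0532), was 0.23 without it.

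Without Control M01 the other pair that passed was Nr1d2 with Dbp, both direct targets of the clock dimer, at r = 0.56 and rho = 0.56 (permutation p = 0.00217 and 0.00235, adjusted p = 0.0488 and 0.0529). The same pair had r = -0.08 with Control M01, and 0.65 (adjusted p = 0.267) among F-named libraries. The other pairs among Nr1d1, Nr1d2 and Dbp were also positive without Control M01. They had r = 0.48 for Nr1d1 with Nr1d2 and 0.44 for Nr1d1 with Dbp, and neither passed. Per1, placed above in the same phase as Nr1d1, ran against it between the Control letters (log2 difference 1.04 beside -0.51, with Control M01). Per3 and Cry2 had r = -0.53 (adjusted p = 0.0627) without that library and 0.29 with it. Within F-named libraries 0 of 45 pairs passed, and within M-named libraries without Control M01 0 of 45 did.

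**Figure D5:**
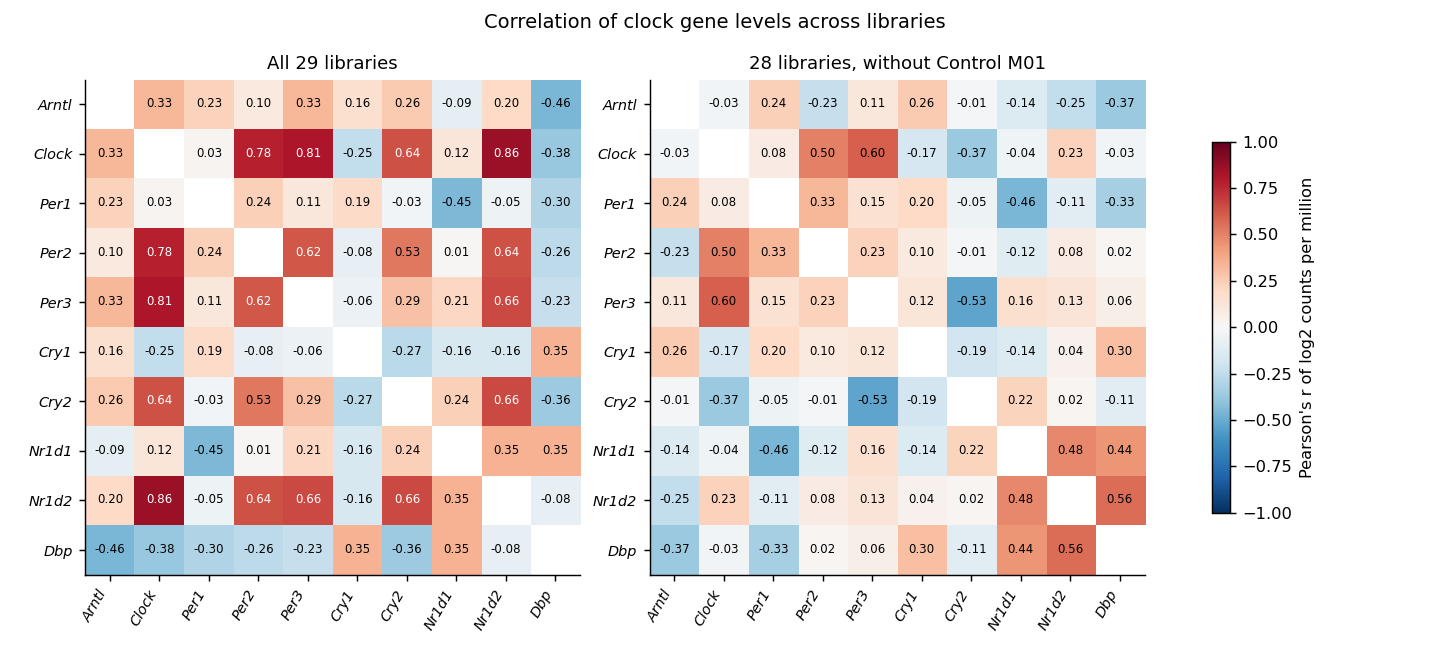
Pearson's r of log2 CPM (colour and number) for each pair of clock genes over all 29 libraries (left) and over the 28 without Control M01 (right). The block of high r around Clock on the left (0.86 with Nr1d2, 0.81 with Per3, 0.78 with Per2, 0.64 with Cry2) shrinks to 0.23, 0.60, 0.50 and -0.37 on the right, where Nr1d1, Nr1d2 and Dbp are positive among themselves.

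The genes whose levels ran most like a member's were looked up for Dbp and Arntl among 12137 genes, as a description over 29 libraries that share depth and group. Most like Dbp were Ube2s (r = 0.68), C3H11orf58 (0.68), Znf688 (0.64), Lyl1 (0.64) and C1H1orf53 (0.63), with r of 0.63, 0.60, 0.56, 0.55 and 0.59 without Control M01. Most like Arntl were Tex26 (0.71), Bcat2 (0.65), Dsg2 (0.61), Kcnh8 (0.60) and Prkdc (0.59), with r of 0.68, 0.59, 0.58, 0.63 and 0.50 without it. No clock gene of the longer list was among these 10 genes.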

How the data were processed

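Polyadenylated RNA from supraoptic nucleus punches was measured in 29 libraries. Each deposited count is the whole number of read pairs that featureCounts 1.6.2 gave a gene of the Ensembl annotation, with no strand option, per the file headers; no source used here names the aligner. Tables deposited by the authors, for which the submitters' processing notes name DESeq2, hold log2 fold changes and p-values, and their 56 columns of values per library were not used. The authors name 9699 genes. RefSeq's table for this assembly named 5594 more, by gene spans sharing 0.5 or more of each other's length, and where both gave a name it was the same in 96.57% of 8787 genes.

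The edgeR 4.0.16 analysis (R 4.3.3) kept 17558 genes by filterByExpr, the rest holding 0.126% of counts, scaled libraries by TMM and fitted a robust quasi-likelihood model of group and sex, with Benjamini-Hochberg adjustment over all genes and a threshold of 0.05. A p-value printed with a log2 difference comes from edgeR unless another tool is named. Letter contrasts used group and letter, or 6 cells of group by letter. CPM used scaled totals, with a prior count of 2 on the log2 scale for correlations, which were tested by 100000 permutations (scipy 1.17.1, Python 3.11.15) and adjusted over 45 pairs. The spread ranking compared the members with all tested genes whose mean level was at least that of the lowest member. No upper limit was set, so more abundant genes are included. Alternatives were DESeq2 1.42.0, other scalings, filters, covariates and sample sets, a block by replicate name, and each library left out; gene lists without Control M01 were added after seeing the data. Scripts were tested on simulated data.

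Named genes were all 10 members, of each other clock list those past the threshold or otherwise the 2 with the smallest p, up to 4 of each further list (some genes that this names are not reported here), and the 5 genes most like Dbp and Arntl; Hlf and Usp2 in Rehydrated against Control, and the genes named in Rehydrated M04, were named after their values were seen. The members, lists and tests were chosen with earlier results of these data known, among them that activity genes follow the name letter. Replicate names do not pair libraries: the correlation of deviations was -0.12 to 0.11 over 19 same-named pairs.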

Additional observations from a re-analysis of the deposited data

Results flagged for a closer look

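Member values in log2 CPM were tested for outliers in 30 sets by group, where chance flags about 1 in 20. In 6 sets 1 library lay further from its nearest neighbour, relative to the group's range, than Dixon's 95% critical value allows. Control M01 was the low library in 5 of these 6. For Clock its gap took 0.786 of the Control range in log2 CPM (levels of 10.8 CPM against 53.1 CPM in the next library). On that log2 scale the gap was 0.756 for Nr1d2 (23.9 against 62.9 CPM) and 0.625 for Cry2 (15.8 against 30.1 CPM). It was 0.605 for Per2 (14.3 against 27 CPM) and 0.543 for Per3 (30.6 against 57.5 CPM). The remaining set was Per3 in Dehydrated, where F06 had 52.5 CPM and the next library 66.5 CPM, a gap of 0.481 of the log2 range.

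The difference of Per1 between M-named and F-named libraries changed from Control to Dehydrated by -1.24 in log2, past the threshold of the test of that difference. The name letter, the running number in the column name and the levels of immediate-early, glucocorticoid-responsive and temperature-responsive genes moved together in Control, and their part in the value was not tested.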

How the results depend on the processing

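With each of the alternatives run, 0 of the 10 clock genes passed in the 3 treatment comparisons, by sex label or by letter over all groups, also in each of the 29 fits with 1 library left out. Of 3911 member values called in neither setting, 242 (6.19%) had the other sign, and no called value changed sign. Counts over all genes moved more, and except where fewer libraries or genes entered the cause was not tested. DESeq2 called 39 genes in Dehydrated against Control, 18 in Rehydrated against Control, 13 in Rehydrated against Dehydrated, 10 by sex, 12 by letter, and 55 and 78 for the change of the letter difference from Control to Dehydrated and to Rehydrated. Within groups it called 440 genes by letter in Control (2 members), 1 in Dehydrated and 5 in Rehydrated. DESeq2 without Control M01, added after seeing the data, called 40, 3, 16, 12, 9, 66 and 114 (1 member, Per1 at -0.77, adjusted p = 0.00828), and 238 in Control (2 members) and 6 in Rehydrated.

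With edgeR, no filter on low counts gave 16 genes by sex and 8 by letter, and a mean of at least 1 CPM gave 0 by letter. F-named libraries alone gave 0 genes in Dehydrated against Control, 0 in Rehydrated against Dehydrated and 23 by sex, and M-named alone 5, 0 and 3. Only the compared groups gave 11 in Dehydrated against Control and 1 in Rehydrated against Dehydrated. Control libraries alone gave 2 by sex and 7 by letter, Dehydrated alone 0 by letter, and Rehydrated alone 2 by sex. Sex and letter in 1 model gave 0 by letter. Sex cells in place of letters gave 0 genes and 0 members for the change from Control to Dehydrated. Deviations from group means gave 8 called pairs of members, F-named libraries alone 0 and M-named without Control M01 0.

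With 1 library left out, calls ran from 10 to 27 in Dehydrated against Control, 0 to 2 in Rehydrated against Control, 2 to 9 in Rehydrated against Dehydrated, 6 to 7 by sex and 0 to 6 by letter. For the change of the letter difference they ran from 5 to 16 and 0 to 21. Within Control they ran from 37 to 360 (1 to 2 members), with 37 without F02, 44 without M04, 47 without F05, 60 without F03, 65 without M01, 178 without F01 and 360 without M03. In Dehydrated and Rehydrated they ran from 0 to 1. Called pairs of members ran from 2 to 6, with 6 without Rehydrated F03 or F05, 5 without Dehydrated M09, and 4 without Control F05, Rehydrated M04 or Rehydrated M05.

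A replicate block by name gave 7 genes in Rehydrated against Dehydrated against 4 without it, and 0 members; it could not be fitted for letter comparisons. The median count of a member was at least 376, the collection hour of each animal is not known here, and name letter and column number cannot be told apart.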
